A study of Mus musculus with 2 samples.

Results

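The genes described are 38 genes that encode the contractile apparatus and the cytoskeleton of smooth muscle, followed in single cells of the mouse uterus. They were chosen by name, from a fixed list of symbols, out of 32285 genes in the deposited matrices, and all 38 symbols were found there. The list was drawn up with earlier results of these data known. They fall into 6 role groups: 5 filament motor genes, 5 genes of the light chain kinase and phosphatase, 11 thin filament and actin-binding genes, 3 intermediate filament genes, 11 crosslinker and adhesion plaque genes and 3 transcription regulators.

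Each of the 2 single-cell libraries was made from whole uteri of 3 female C57BL/6J mice aged 6 months, pooled before sequencing. The control library is labelled Prickle1 f/f, and the conditional knockout (cKO) library is labelled Prickle1 f/f MiC, so the floxed Prickle1 allele is shared by both groups. The labels do not explain MiC, do not name the cells in which the allele was recombined and give the genotype field of both samples as wild-type. PRICKLE1 is a protein of planar cell polarity, the alignment of cells within a tissue sheet, and the series title locates its loss to the myometrium, the muscle wall of the uterus. With 1 pooled library per group there was no replicate, so no p-value was computed, and every interval given here is a 95% interval that covers counting error and nothing else.

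In smooth muscle, calcium bound to calmodulin activates myosin light chain kinase, which phosphorylates the regulatory light chain so that myosin can pull on actin filaments, and myosin phosphatase reverses the step. The filaments run between dense bodies and membrane plaques, where filamin, alpha-actinin, vinculin and talin tie actin to integrins, and desmin, vimentin and synemin form the intermediate filaments. Many of these genes are switched on by serum response factor (SRF), which binds a DNA element called the CArG box, together with its muscle cofactor myocardin.

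The control library held 45035801 UMIs (unique molecular identifiers, each a tag for 1 captured transcript end) and the cKO library 34261441. After filtering, 3490 control cells and 3586 cKO cells remained, with medians of 4953 and 4903 UMIs per cell, and 6 cell barcodes occurred in both libraries. Levels are given as CPM, the UMIs of a gene per 1000000 UMIs of a cell class in 1 library. They are not divided by transcript length, because a transcript gives 1 tagged end whatever its length. A ratio is the log2 of cKO over control, each level raised by 5 CPM, minus the median of that ratio over all genes of the class with a mean of at least 10 CPM, and it is called the centred log2 ratio. A gene is called higher or lower when its centred ratio lies at or past 1.5-fold, which is 0.585 on the log2 scale.

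The cells that carried these transcripts fell into 2 sets. Clustering was done without the 38 genes, and clusters were named from 12 other smooth muscle markers, among them Jph2, Oxtr, Nexn and Cacna1c. Clusters 21 and 22 met that rule and are called smooth muscle-like. They held 87 control cells, 2.49% of the library (95% exact binomial interval 2.00 to 3.07%), and 325 cKO cells, 9.06% (8.14 to 10.1%), with median depths of 5309 and 4042 UMIs. Cluster 13 was led by Actg2, Pcp4, Acta2 and Myh11 and is called the Actg2-led cluster. It stayed without a cell type name, because fewer than 3 of the fixed markers reached the naming threshold in it. Its median depth was 0.285 times that of its libraries. It held 213 control cells (6.1%) and 349 cKO cells (9.73%), with median depths of 1549 and 1344 UMIs. All 12 markers were detected, with at least 1 UMI, in the control cells of both sets, and in the cKO library Sgca alone was at 0 in the Actg2-led cluster. Detection alone does not set them apart, since 11 of the 12 were also detected in fibroblast-like cells of each library. The summed marker level was 905 CPM in control and 1437 in cKO smooth muscle-like cells. It was 990 and 1123 CPM in the Actg2-led cluster, and 405 and 427 CPM in fibroblast-like cells. Of 8 pericyte markers, 4 were detected in control and 5 in cKO smooth muscle-like cells, and 4 in each library of the Actg2-led cluster. Higd1b, Ndufa4l2 and Vtn were at 0 in both sets and both libraries. Among the classes compared, 2 of the 8 were highest in smooth muscle-like cells and 1 in the Actg2-led cluster. The comparison within the Actg2-led cluster was added after the clusters had been seen.

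Prickle1 itself was sparse. The smooth muscle-like cells held 9 UMIs in the control library (18.1 CPM, 8.26 to 34.3) and 49 in the cKO library (32.3 CPM, 23.9 to 42.7), and the Actg2-led cluster held 5 (12.2 CPM) and 2 (3.56 CPM). It was therefore not lower in the smooth muscle-like cells of the cKO library. The labels do not say which exons the allele removes, and a tag at the transcript's end need not be lost with an upstream exon, so these values check the labels in neither direction.

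The promoters of several members carry the CArG box, shown here because it is the element through which SRF reaches this gene set. The RefSeq promoter table (GRCm38.p6, 250 bases before to 50 bases after each start) had entries for 34 of the 38 members, and Tagln, Myocd, Myh11 and Actg2 had none. A full CArG box was found in 6 of the 34 (17.6%): Cnn2, Ldb3, Myl6, Myl9, Srf and Vcl. Over all 27025 genes in the table it was found in 488 (1.81%). Allowing a single G or C in the central AT stretch added Acta2, Flnc, Pcp4, Pdlim3 and Synm, for 11 members (32.4%) against 3050 of all genes (11.3%). The element reads the same on both strands, so both strands were searched. The stretches are Srf at chr17:46556190-46556269 (minus strand), Myl9 at chr2:156775278-156775337 (plus), Myl6 at chr10:128493025-128493084 (minus), Cnn2 at chr10:79988519-79988578 (plus), Vcl at chr14:20929148-20929205 (plus) and Acta2 at chr19:34255374-34255482 (minus). Each lies upstream of the annotated start and is written 5′ to 3′ with the element in capitals. Srf has a pair of full elements that begin 82 and 62 bases before its start, and Acta2 has a pair that each depart from the full element by 1 base, at 84 and 34 bases.
Srf: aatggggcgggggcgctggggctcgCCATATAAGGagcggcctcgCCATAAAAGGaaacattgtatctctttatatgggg
Myl9: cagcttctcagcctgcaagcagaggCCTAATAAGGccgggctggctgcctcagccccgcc
Myl6: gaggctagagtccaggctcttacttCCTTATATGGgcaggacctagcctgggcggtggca
Cnn2: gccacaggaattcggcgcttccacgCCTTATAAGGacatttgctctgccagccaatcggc
Vcl: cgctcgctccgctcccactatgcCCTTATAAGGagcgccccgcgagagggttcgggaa
Acta2: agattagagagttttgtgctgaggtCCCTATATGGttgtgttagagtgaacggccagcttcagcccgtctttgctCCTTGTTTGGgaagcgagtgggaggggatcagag

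The 38 genes supplied 4.98% of all UMIs in the Actg2-led cluster of the control library and 3.79% in the cKO library. In the smooth muscle-like cells they supplied 1.1% and 1.39%, and in fibroblast-like cells 0.605% and 0.582%. Per cell, the median share in the Actg2-led cluster was 4.59% in control cells (middle 50% of cells 3.12 to 6.04%) and 3.45% in cKO cells (2.21 to 4.74%). In smooth muscle-like cells the medians ran the other way, 0.896% in control and 1.29% in cKO. The spread between cells of 1 library is not a replicate error.

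**Figure D1:**
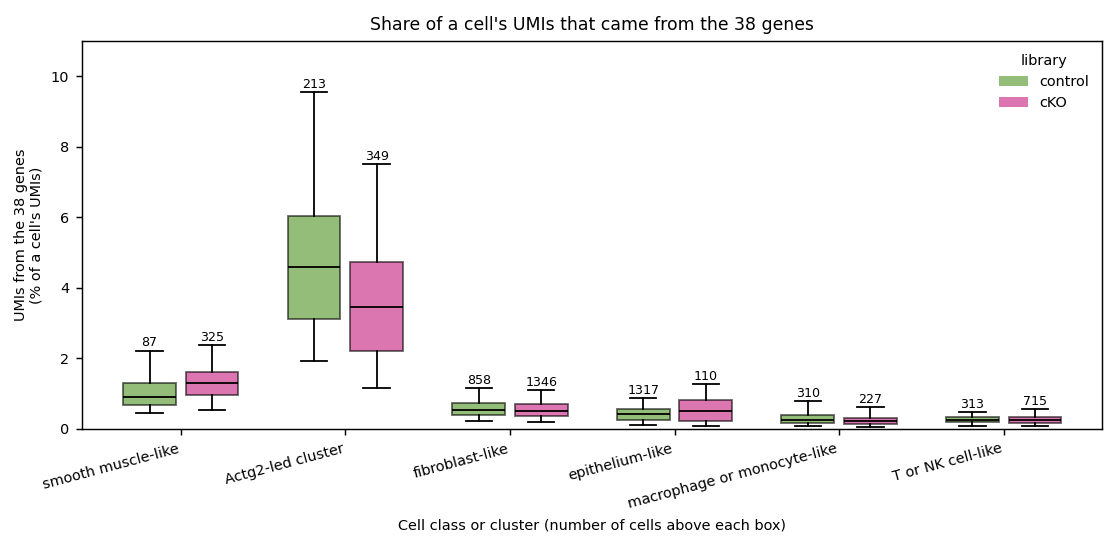
Percentage of a cell's UMIs that came from the 38 genes (y axis) in 6 cell classes or clusters (x axis), control in green and cKO in pink. Boxes show the middle 50% of cells with the median as a line, whiskers run from the 5th to the 95th percentile of cells, and the number of cells stands above. The Actg2-led cluster lies above every other class plotted, with medians of 4.59% in control and 3.45% in cKO.

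Most members had their highest level in 1 of these 2 sets. Among the 13 classes or unnamed clusters with at least 20 cells in each library, the Actg2-led cluster had the highest CPM for 22 of the 38 genes in the control library and 23 in the cKO library, and the smooth muscle-like cells for 6 and 7. In both libraries alike, 21 genes peaked in the Actg2-led cluster, among them the actins Acta2 and Actg2, the smooth muscle myosin heavy chain Myh11, the calponin Cnn1 and transgelin (Tagln). Another 4 peaked in the smooth muscle-like cells: Myocd, which encodes myocardin, the myosin phosphatase subunits Ppp1r12a and Ppp1r12b, and smoothelin (Smtn). Both sets are defined by cells that share these 2 libraries. The Actg2-led cluster was also singled out by its leading genes, most of which are members. That members peak there was thus partly fixed in advance, and this order, like the folds below, is a description.

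Restriction to muscle differed widely between members. In the control library, Actg2 stood at 2740 CPM in the Actg2-led cluster, 195 in smooth muscle-like cells and at most 27.9 in any other class, and Mylk, the light chain kinase, at 3768, 482 and at most 54.3. For 11 genes in the control library and 10 in the cKO library, the Actg2-led cluster was at least 10-fold above every class other than the smooth muscle-like cells. At the other end, Cnn2 and the tropomyosin Tpm4 peaked in both libraries in cluster 4, an unnamed cluster led by Ccr7 and Ccl22, at 387 and 476 CPM for Cnn2 and 907 and 993 CPM for Tpm4. Talin (Tln1) peaked in T or NK cell-like cells, Srf in epithelium-like cells and Cnn3 in lymphatic endothelium-like cells. Caldesmon (Cald1) was nearly as high in fibroblast-like cells (795 and 1059 CPM) as in the Actg2-led cluster (1177 and 1061 CPM).

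**Figure D2:**
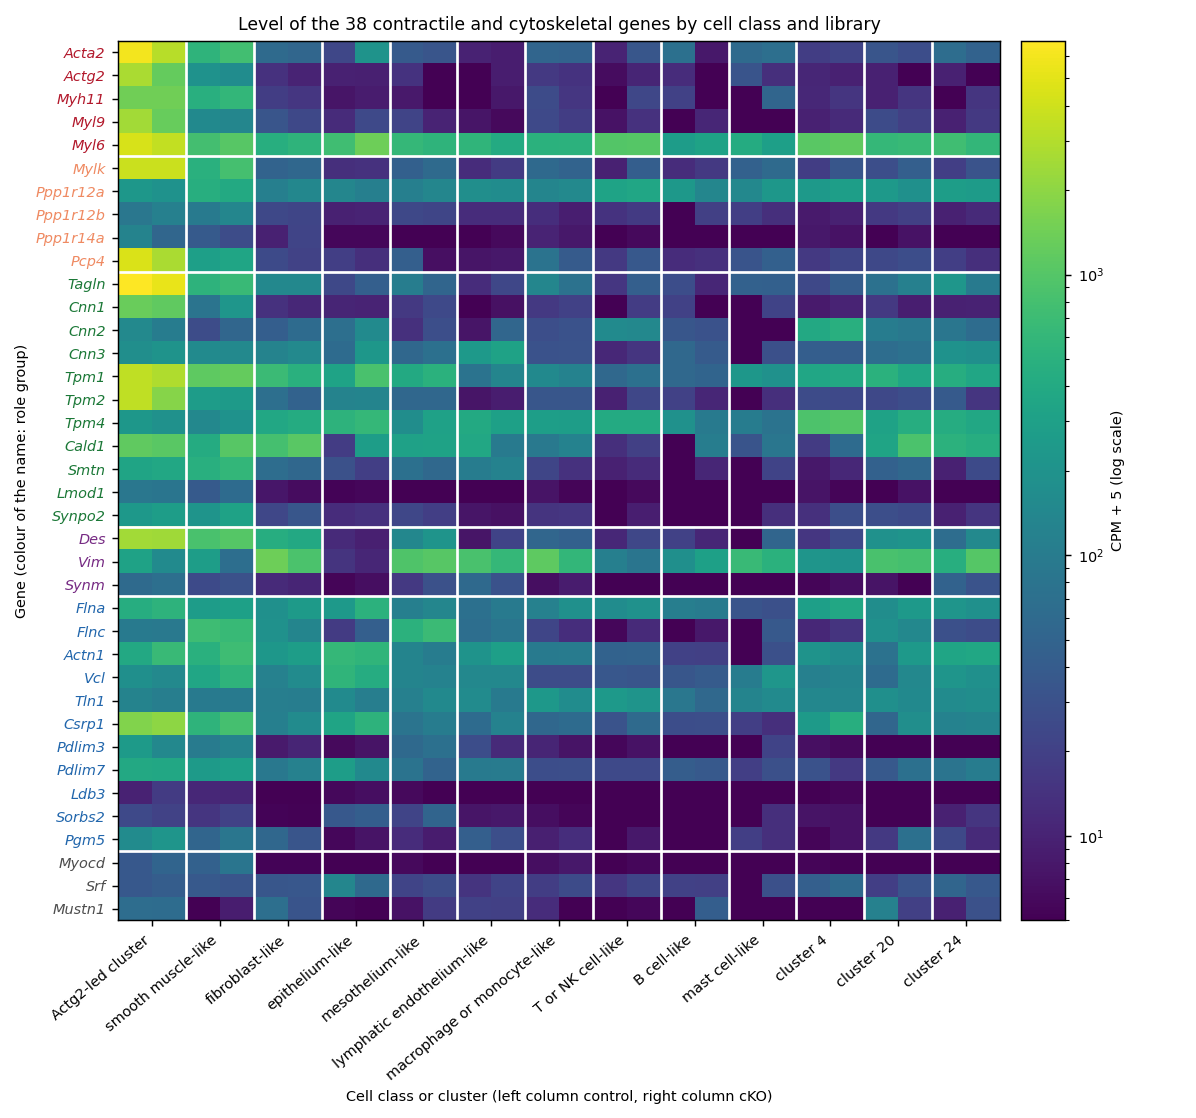
Level of each of the 38 genes (rows, names coloured by role group, white lines between groups) in 13 cell classes or clusters (column pairs, control left and cKO right), as CPM plus 5 on a log colour scale. Acta2, Actg2, Myh11, Myl9, Mylk, Pcp4 and Tagln are highest in the 2 leftmost column pairs, whereas Myl6, Tpm4, Flna and Tln1 are present in nearly all classes. Outside those pairs, Tagln reaches 214 CPM in cluster 24 (control) and Acta2 199 CPM in epithelium-like cells (cKO).

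Free RNA was a small part of these levels in the smooth muscle-like cells and the Actg2-led cluster. Droplets with at most 100 UMIs, which hold no cell, contained 16492 member UMIs in the control library (0.640% of their UMIs) and 19437 in the cKO library (1.06%). From the epithelial, macrophage and T cell markers found in each set, free RNA was estimated at 1.89% and 7.25% of the UMIs in the Actg2-led cluster and 1.42% and 3.16% in smooth muscle-like cells. That would supply member UMIs worth 0.0121% and 0.0768% of the Actg2-led cluster's UMIs, against the 4.98% and 3.79% measured.

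In the Actg2-led cluster both smooth muscle actins, the regulatory light chain and beta-tropomyosin were lower in the cKO library, while the myosin heavy chain, the light chain kinase and desmin were within the limit. Of the 38 genes, 37 passed the level filter, and 9 were lower and 1 higher past the 1.5-fold limit. Of all 7572 genes that passed the filter in this cluster, 19.8% were lower and 17.0% higher, so the members' share lower (24.3%) was near that of all genes and their share higher (2.70%) was below it. The median centred ratio of the members was -0.29, inside the middle 50% of all genes (-0.45 to 0.40), and 26 of the 37 lay below 0. The counting interval lay wholly below 0 for 16 members and wholly above for 1. No such count over all genes stands beside it, so it does not set the members apart from other genes.

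Of the 5 filament motor genes, 3 were lower in this cluster, where 19.8% of all genes were lower. The median of these 5 genes, -1.08, was the lowest of the 6 role groups. Smooth muscle alpha-actin (Acta2, ENSMUSG00000035783) had 2441 UMIs in control cells (5950 CPM, 5716 to 6190) and 1745 in cKO cells (3107 CPM, 2963 to 3256), a centred log2 ratio of -1.08 (-1.17 to -0.99). Gamma-enteric actin (Actg2, ENSMUSG00000059430) had 1124 UMIs (2740 CPM) and 700 (1246 CPM), a centred ratio of -1.27 (-1.41 to -1.14). The regulatory light chain Myl9 (ENSMUSG00000067818) had 1035 UMIs (2523 CPM) and 715 (1273 CPM), a centred ratio of -1.12 (-1.26 to -0.99). The control level was about 2 times the cKO level for each of these 3 genes. The other 2 motor genes stood apart: Myh11 (ENSMUSG00000018830) was at 1414 and 1415 CPM, and the essential light chain Myl6 at 4385 and 3507 CPM, with centred ratios of -0.14 and -0.46.

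Among the genes that regulate the light chain, the kinase and its phosphatase differed little. Mylk was at 3768 CPM in control and 3840 in cKO, and the phosphatase subunits Ppp1r12a and Ppp1r12b had centred ratios of -0.34 and 0.25, with intervals that included 0. The phosphatase inhibitor Ppp1r14a, known as CPI-17, was lower, with 50 UMIs (122 CPM) and 28 (49.9 CPM), a centred ratio of -1.35 (-2.01 to -0.70). Pcp4, a small modulator of calmodulin, had 1855 UMIs (4521 CPM) and 1536 (2735 CPM), a centred ratio of -0.87.

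Of the 11 thin filament and actin-binding genes, 2 were lower, a share near the 19.8% of all genes in the cluster, none was higher, and the group's median was -0.30. Beta-tropomyosin (Tpm2) had 1403 UMIs (3420 CPM) in control cells and 1023 (1821 CPM) in cKO cells, a centred ratio of -1.05 (-1.17 to -0.93). Cnn2 was at 144 and 97.9 CPM, a ratio of -0.67. The most abundant member of all, Tagln, was at 6803 and 5322 CPM, and its ratio of -0.49 lay short of the limit. The same held for Tpm1 (3424 and 2840 CPM, -0.41), Cnn1 (1309 and 1168 CPM, -0.30) and Cald1 (1177 and 1061 CPM, -0.29). Smtn, Cnn3 and Synpo2, which encodes an actin-bundling protein, lay between 0.01 and 0.10.

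Of the intermediate filament genes, desmin (Des) was at 2508 and 2443 CPM and synemin (Synm) at 56.1 and 64.1 CPM, whereas vimentin (Vim), the mesenchymal intermediate filament, was lower, at 312 and 151 CPM with a ratio of -1.16. Among the plaque genes, alpha-actinin 1 (Actn1), which crosslinks actin, was the single member higher in this cluster, with 157 UMIs (383 CPM) and 366 (652 CPM), a ratio of 0.62 (0.35 to 0.90). Pdlim3, which binds alpha-actinin, was lower, at 249 and 139 CPM and a ratio of -0.96. Csrp1, a LIM protein of the actin cytoskeleton, was at 1750 and 1978 CPM. The transcription regulators were sparse, with 13 and 26 UMIs for Myocd and 13 and 21 for Srf, and none passed the limit.

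**Figure D3:**
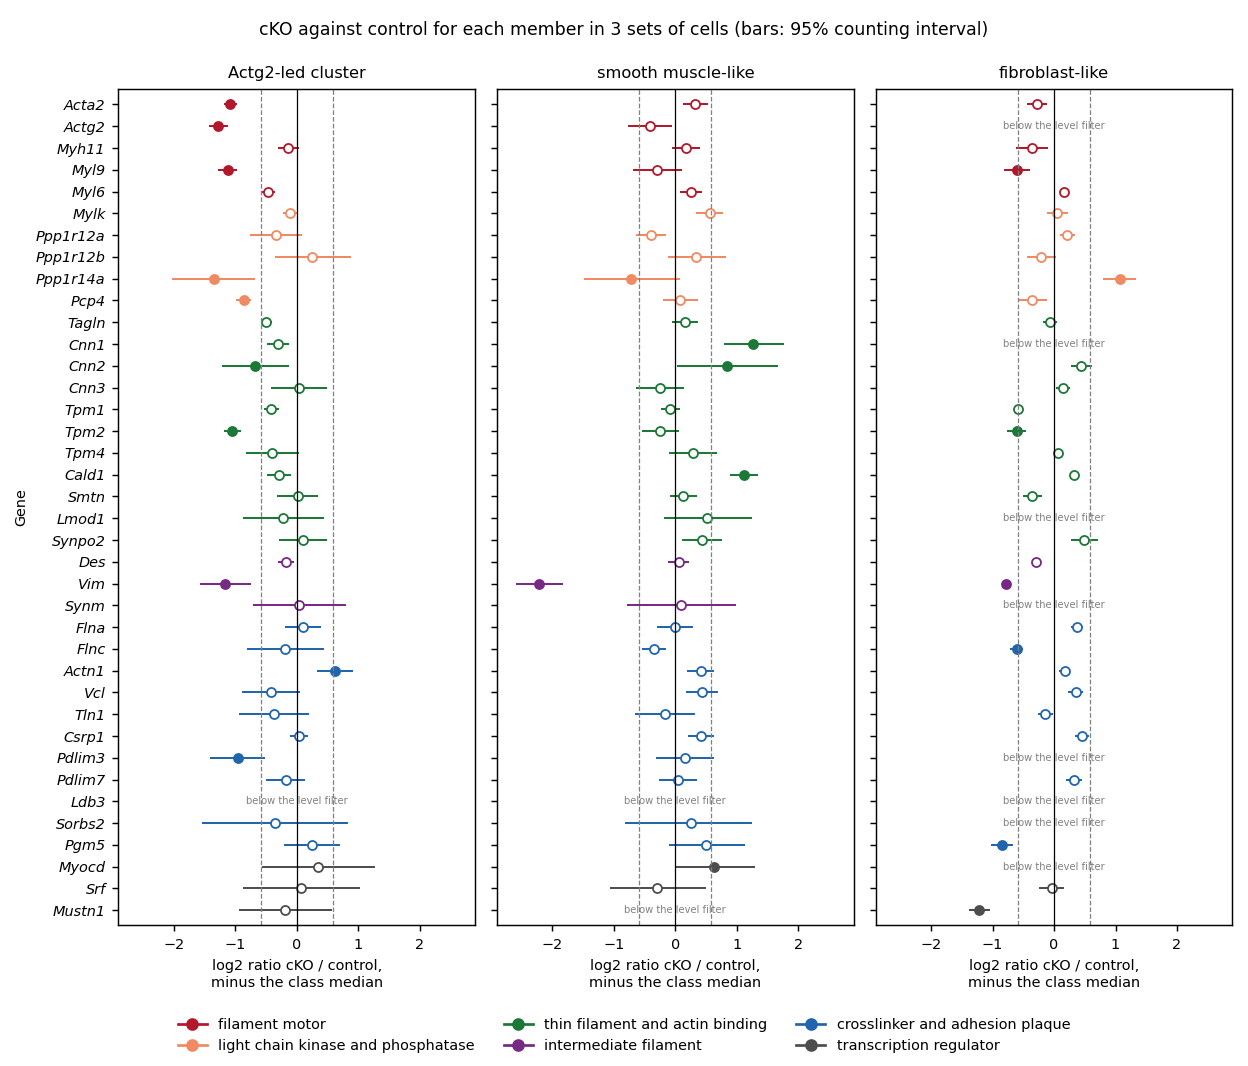
Centred log2 ratio of cKO over control (x axis) for each of the 38 genes (y axis, coloured by role group) in the Actg2-led cluster, smooth muscle-like cells and fibroblast-like cells. Points are the ratios, filled where they pass the 1.5-fold limit (dashed lines), and bars are 95% counting intervals from 1 library per group. Acta2, Actg2 and Myl9 lie between -1.27 and -1.08 in the left panel and between -0.41 and 0.33 in the middle panel.

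These differences kept their direction under every alternative setting run for the cluster. Over 15 settings Acta2, Actg2, Myl9, Ppp1r14a, Pcp4, Tpm2 and Vim were past the limit in all, Pdlim3 in 14, Cnn2 in 11 and Actn1 in 10. They moved together with other measures of the 2 libraries. Malat1, a nuclear RNA, made up 1.38% of the cluster's UMIs in control and 0.350% in cKO, the median mitochondrial share was 3.42% and 2.51%, and the summed level of the 7 fibroblast markers was 1509 and 828 CPM, with Pi16 at 0 in both. The summed level of 14 vascular mural genes, 7 of them at 0 in each library, was 173 and 328 CPM. Rgs4, which carried the rise of the sum, was the one past the limit, at 102 and 267 CPM with a ratio of 1.20 (0.72 to 1.71). The others that passed the filter were Kcnj8 (-0.49), Mcam (-0.38) and Abcc9 (-0.34), with intervals that included 0. The part of these measures in the result was not tested.

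The ratio also followed transcript length in this cluster. Lengths are those of the longest protein-coding transcript in GENCODE vM21. Across the 37 members Spearman's rho between length and centred ratio was 0.60, against 0.17 across all 7486 genes with a length, and it is given as a description, since the genes share the same 2 libraries. The genes were ranked by length and cut into 4 equal bins. In the bin with the shortest transcripts (204 to 2005 nucleotides) 29.1% of all genes were lower and the median was -0.21, and 5 of the 10 members there were lower, with a member median of -0.68. In the bin with the longest transcripts (at least 4886 nucleotides) 15.7% of all genes were lower, and none of the 11 members was, with a member median of -0.11. Acta2, Actg2, Myl9, Pcp4 and Ppp1r14a have transcripts of 641 to 2035 nucleotides, and Myh11 and Mylk of 6549 and 7824. In smooth muscle-like cells rho was 0.28 over 36 members and 0.03 over all genes, and in fibroblast-like cells it was 0.10 over 30 members and 0.16 over all genes, so the trend over all genes was nearly the same there as in the Actg2-led cluster. The part of transcript length in the result was not tested.

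**Figure D4:**
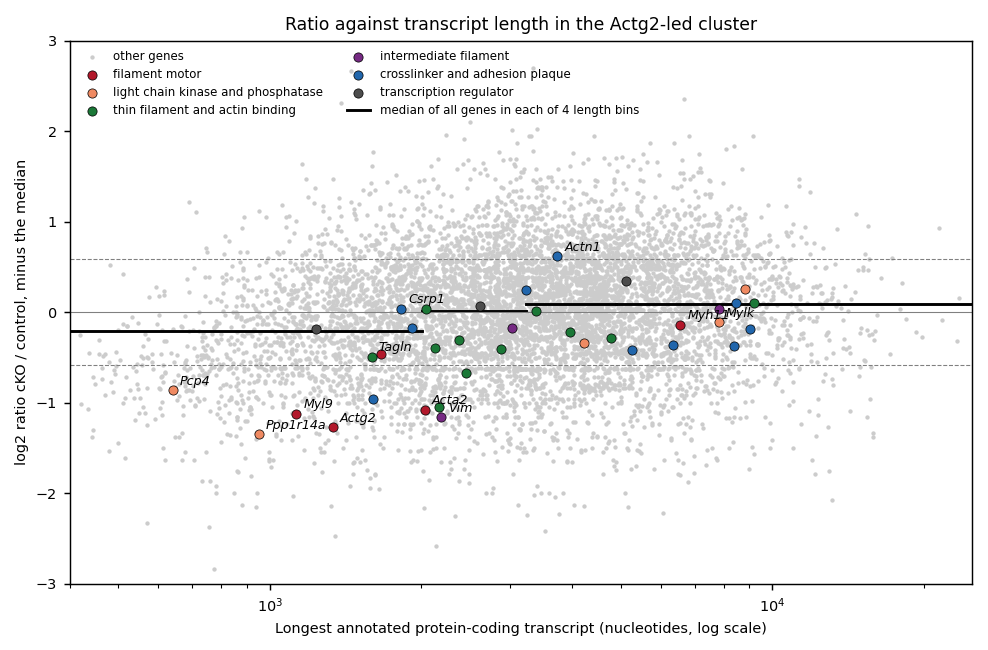
Centred log2 ratio of cKO over control in the Actg2-led cluster (y axis) against the length of the longest annotated protein-coding transcript (x axis, log scale). Grey points are single genes (a few beyond the axis limits are not drawn), coloured points are members by role group, and black lines are medians of all genes in the 4 bins of length. Actg2, Myl9, Acta2, Pcp4 and Ppp1r14a, of 641 to 2035 nucleotides, lie at or below -0.87, whereas Myh11 and Mylk, and among the short ones Csrp1, lie near 0.

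In smooth muscle-like cells the members did not show this pattern. Here 36 of the 38 passed the level filter, 4 were higher and 2 lower, and 30 were within the limit. Of all 8108 genes that passed, 11.7% were higher and 11.4% lower, beside 11.1% and 5.56% of the members. The median centred ratio was 0.15, within the middle 50% of all genes (-0.31 to 0.32). The class median that was subtracted was 0.17, and without it 9 members were higher and 1 lower. Shares of all genes are not given for these uncentred counts or for the pooled count below. The sign of the member median was not stable. It was -0.055 when the 38 genes were let into the clustering, which gave 107 control and 344 cKO cells, -0.10 at a clustering resolution of 2.0 (106 and 340 cells), and -0.26 when the Actg2-led cluster was pooled in, with 12 members lower.

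The members past the limit on the higher side were led by actin-binding genes. Calponin 1 (Cnn1), an inhibitor of the myosin ATPase on actin, had 38 UMIs in control cells (76.3 CPM, 54.0 to 105) and 326 in cKO cells (215 CPM, 192 to 239), a centred ratio of 1.26 (0.80 to 1.75). Caldesmon (Cald1), another actin-side inhibitor, had 209 UMIs (419.5 CPM) and 1567 (1032 CPM), a ratio of 1.12 (0.91 to 1.33). Cnn2 had 11 UMIs (22.1 CPM) and 75 (49.4 CPM), a ratio of 0.83 (0.04 to 1.66), and Myocd 21 (42.2 CPM) and 117 (77.1 CPM), a ratio of 0.63 (0.01 to 1.28). The intervals of the last 2 reached almost to 0. With the Actg2-led cluster pooled in, Cnn1 and Cnn2 turned to -0.62 and -0.48.

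On the lower side stood Vim, with 137 UMIs (275 CPM) in control and 96 (63.3 CPM) in cKO, a ratio of -2.21 (-2.58 to -1.84), and Ppp1r14a, with 17 (34.1 CPM) and 33 (21.7 CPM), a ratio of -0.72 whose interval (-1.48 to 0.06) included 0. Vim was past the limit in all 19 settings run, of which 2 use the same cells (cluster 21), Cald1 and Cnn2 in 18, Cnn1 in 17, Ppp1r14a in 16 and Myocd in 15. Vim was also below the class median in 9 of the 12 classes where it passed the filter and past the limit in 5 of them, among them fibroblast-like cells (1397 and 867 CPM) and macrophage or monocyte-like cells (1125 and 587 CPM), and it was higher in B cell-like cells and cluster 24.

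By the mean CPM of both libraries, the 5 most abundant members of the smooth muscle-like cells were Tpm1, Des, Myl6, Cald1 and Flnc, and apart from Cald1 they were within the limit. Alpha-tropomyosin (Tpm1) had 570 and 1845 UMIs (1144 and 1215 CPM, ratio -0.09), desmin (Des) 428 and 1528 (859 and 1007 CPM, 0.06), Myl6 387 and 1589 (777 and 1047 CPM, 0.26) and filamin C (Flnc), a muscle crosslinker, 357 and 962 (717 and 634 CPM, -0.35). Acta2 was at 536 and 759 CPM with a ratio of 0.33, opposite in sign to its ratio in the Actg2-led cluster, and Actg2 at 195 and 164 CPM with a ratio of -0.41. Mylk, at 482 and 801 CPM and 0.56, lay just short of the limit. The plaque genes Actn1, Vcl and Csrp1 had ratios of 0.41 to 0.43, Ldb3 was below the filter with 3 and 9 UMIs, and Mustn1 had no UMI in control, which allows a level of up to 7.4 CPM, and 6 in cKO.

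The 2 smooth muscle-like clusters differed in how they carried these values. In cluster 21, with 74 control and 237 cKO cells, 7 of 36 expressed members were higher and 2 lower, beside 14.6% and 14.1% of all genes, with a median of 0.27. The ratios there were 2.03 for Cnn1, 1.48 for Cald1 and 1.45 for Myocd. In cluster 22, with 13 control and 88 cKO cells, 4 of 35 were higher and 7 lower, beside 24.0% and 23.0% of all genes, so neither count stood above the background. The median was -0.16, and the same genes had ratios of 0.22, 0.36 and -1.59. Of the 137 control UMIs of Vim, 97 came from the 13 control cells of cluster 22, and the ratio of Vim was -1.88 in cluster 21 and -2.45 in cluster 22. Malat1 made up 10.1% of the UMIs of smooth muscle-like cells in control and 5.55% in cKO, and the part of that in these ratios was not tested.

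In fibroblast-like cells (858 control and 1346 cKO cells in 7 clusters) 30 of the 38 genes passed the filter, 1 was higher and 6 were lower. Of all 7812 genes that passed, 3.51% were higher and 3.70% lower, and the median member ratio was -0.055. The class was made up differently in each library: cluster 23 held 17 control and 227 cKO cells and cluster 15 held 209 and 52. Without cluster 23, which came over 90% from 1 library, the member median was 0.006. The gene on the higher side was Ppp1r14a, with 46 UMIs (4.79 CPM) in control and 274 (17.0 CPM) in cKO, a ratio of 1.07 (0.82 to 1.31). Its direction was the reverse in smooth muscle-like cells and in the Actg2-led cluster. On the lower side were Mustn1, a small musculoskeletal nuclear protein, at 65.5 and 27.5 CPM (-1.21), Pgm5, a phosphoglucomutase relative of adhesion plaques, at 51.02 and 28.4 CPM (-0.84), Vim (-0.78), Tpm2 (-0.61), Flnc (-0.61) and Myl9 (-0.60). Tpm2, Flnc and Myl9 lay just past the limit. Cald1, the most abundant member in the cKO cells of this class, had a ratio of 0.32. Free RNA was estimated at 1.43% and 3.96% of the UMIs in this class. For Myh11 and Pcp4 the estimates in cKO cells, 11.4 and 26.5 CPM, reached or passed the 10.5 and 16.05 CPM measured. For Myl9 and Tpm2 they were 7.97 and 15.9 CPM, against 18.6 and 43.25 CPM measured. The member medians of the 7 clusters ranged from -0.33 to 0.18, and the cluster at -0.33 held 6 control cells.

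Genes with and without a CArG box in the promoter window overlapped in their ratios. In the Actg2-led cluster the median was -0.46 for the 5 expressed members with a full box (-1.12 for Myl9 to 0.07 for Srf), -0.87 for the 5 with a near match, Acta2 among them, and -0.19 for the 23 with neither, which spanned -1.35 to 0.62. In smooth muscle-like cells the medians were 0.26, 0.09 and 0.19. The 4 members without a promoter entry (Tagln, Myocd, Myh11 and Actg2) stand outside these groups. Their median was -0.32 in the Actg2-led cluster, where they spanned -1.27 to 0.34, and 0.16 in smooth muscle-like cells.

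Other genes of the pathway were followed in lists, whose counts stand beside 11.7% of all genes higher and 11.4% lower in smooth muscle-like cells, and 17.0% and 19.8% in the Actg2-led cluster. Among 24 contraction signalling genes in the smooth muscle-like cells, 2 were higher, 1 lower and the median was -0.10. The highest ratios were those of Sh3bgr (1.44) and Mrvi1 (0.92), a partner of the cGMP-dependent kinase, and the lowest those of the kinase Pak1 (-1.09) and of Rgs2 (-0.54), which damps signals from Gq-coupled receptors. Of 19 expressed genes of actin and non-muscle myosin, none was higher and 2 were lower, the formin Diaph1 (-0.86) and the actin-sequestering Tmsb10 (-0.70), and Arpc5 and Capzb had the highest ratios (0.48 and 0.42). Of 29 dense plaque and costamere genes, 6 were higher and 4 lower, with a median of 0.06. Pdlim1 (1.20) and Lpp (0.97), a LIM protein of focal adhesions with 281 and 1902 UMIs, had the highest ratios there, and Sgcb (-1.10), a sarcoglycan, and talin 2 (Tln2, -1.01) the lowest. In the Actg2-led cluster the same list had 1 higher and 7 lower of 31.

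The lists around SRF had more genes lower than higher in smooth muscle-like cells and in the Actg2-led cluster. Of all genes, 11.4% (smooth muscle-like) and 19.8% (Actg2-led) were lower. Of 17 expressed SRF cofactors and regulators in smooth muscle-like cells, 1 was higher, the LIM protein Fhl1 (1.13), and 6 were lower, with Elk3 (-1.47) and Csrp2 (-1.43) the lowest, Elk1 (0.50) the second highest and a median of -0.38. In the Actg2-led cluster the counts were 1 and 7 of 16, with a median of -0.45. Of the 9 SRF early targets, genes that answer SRF within minutes of a stimulus and are also known to be induced when tissue is digested, 7 were lower in smooth muscle-like cells, with a median of -1.05. Egr1 was at 6279 and 2557 CPM (-1.47) and Fos at 5988 and 2511 CPM (-1.42), and Ccn1 (-0.21) and Junb (-0.26) had the highest ratios. In the Actg2-led cluster 5 of 8 were lower, with a median of -0.98, and in fibroblast-like cells none of 9 was lower and 1 was higher. Both libraries were digested for 5 hours per the labels' protocol, and the part of digestion in these ratios was not tested.

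Striated muscle genes were sparse. None of 20 passed the filter in smooth muscle-like cells, where 13 were at 0 in control and 12 in cKO. The Actg2-led cluster had 2 that passed: skeletal alpha-actin (Acta1), with 22 and 19 UMIs (53.6 and 33.8 CPM), was lower at -0.74 with an interval that included 0 (-1.58 to 0.12), and the troponin Tnnt2 had 6 and 13 UMIs (0.38). Of 14 vascular mural genes, 4 passed the filter in smooth muscle-like cells and none was past the limit: Abcc9 (0.08), Mcam (-0.22), Rgs4 (-0.27) and Cspg4 (-0.35). As many passed in the Actg2-led cluster, with Rgs4 higher as given above.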

How the data were processed

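Both libraries are 10x Genomics Chromium 3′ v3 single-cell RNA-seq, per the labels' protocols. The authors deposited unfiltered matrices of raw UMI counts per gene and barcode. The file headers name Cell Ranger 4 and the submitters' processing notes name Cell Ranger 6.1.1 and mm10; the annotation release is not given in the sources used here. From these counts, a barcode was kept as a cell if it had 1000 UMIs or more, 500 genes or more and no more than 20% mitochondrial UMIs. Cells were scaled to 10000 UMIs and clustered with scanpy 1.11.5 (2000 variable genes, the 38 members left out; 30 components, 15 neighbours, Leiden resolution 1.0).

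A cluster was named from at least 3 fixed markers, each found in at least 25% of its cells and at 2 times the median cluster or more, unless leading genes of another class or a shallow depth spoke against the name. Lymphoid genes were added to the markers after the clusters had been seen and kept cluster 24 unnamed. Scrublet marked 4 of 7076 cells (0.0565%), too few to count as working, so no doublets were removed. UMIs were summed per class and library; intervals are exact Poisson for levels, and exact conditional for ratios, carried onto the scale with 5 CPM added. With 1 library per group no test was run. The calculation was tested on simulated data.

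Members and lists were chosen with earlier results of these data known. Every member could be named; those past the limit in smooth muscle-like cells and the 5 most abundant there are given in full, and of each other list the 2 highest and 2 lowest ratios there. The alternatives covered scaling, the added CPM, the level filter, clustering, depth, free RNA, cell filters and doublets.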

Additional observations from a re-analysis of the deposited data

Results flagged for a closer look

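A pair of members had opposite ratios in different cells, each past the 1.5-fold limit. Cnn2 was higher in smooth muscle-like cells of the cKO library (0.83) and lower in the Actg2-led cluster (-0.67), a difference of 1.51 on the log2 scale. Ppp1r14a was higher in fibroblast-like cells (1.07) and lower in smooth muscle-like cells (-0.72), a difference of 1.79. Neither difference was tested, because each group is 1 library, and the ratio of Ppp1r14a in smooth muscle-like cells rests on 17 and 33 UMIs. The ratio of Cnn2 in smooth muscle-like cells rests on 11 and 75 UMIs, with an interval (0.04 to 1.66) that reached almost to 0. In the Actg2-led cluster Cnn2 was past the limit in 11 of 15 settings.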

How the results depend on the processing

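No paired analysis was possible because each group has 1 library, and no library could be left out. In smooth muscle-like cells the main values were 4 members higher, 2 lower and a median of 0.15. Without centring they were 9, 1 and 0.33. The count lower was 1 with 20 CPM added, with a filter at 50 CPM and with cells of at least 2000 UMIs. The median was -0.055 with the members among the variable genes. At resolution 2.0 the counts were 2 and 7 and the median -0.10, with cells thinned to 1000 UMIs 9 higher and 5 lower, and in cluster 21 alone 7 higher and a median of 0.27. The planned average of ratios within clusters of at least 20 cells per library left cluster 21 alone (7 higher, median 0.26), so those settings are the same cells centred differently and count as 1. Pooled with the Actg2-led cluster they were 1, 12 and -0.26, with Cnn1 at -0.62 and Cnn2 at -0.48. The last 2 settings and all those of the Actg2-led cluster were chosen after seeing the data. In that cluster (1 higher, 9 lower, median -0.29) the median was -0.15 without centring and -0.39 with the 50 CPM filter. The count higher there was 0 with that filter and with cells of at least 2000 UMIs, 2 with no filter and at resolution 2.0, and 3 with thinned cells. The fibroblast median (-0.055) was 0.07 with the 50 CPM filter and -0.18 with thinned cells. Among the alternatives, shares of all genes past the limit are given only for cluster 21, so the other counts have no such background. The cause of these shifts was not tested. Depth limits the sparse members: 17 to 117 UMIs stood behind Myocd and Ppp1r14a in smooth muscle-like cells.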
